A study of Rattus norvegicus with 12 samples.

Results

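The retina of 7-day-old rat pups (P7) was compared between oxygen-induced retinopathy (OIR) and control (CTL), using 1 small RNA library of each, 2 of the 12 libraries of the series. In the OIR group, Sprague Dawley albino pups had lived in cycling oxygen since shortly after birth, and in the CTL group pups of the same strain and age had lived in room air. Each group stands for 5 rats with 1 library, taken here as 1 pool, and the other 10 libraries cover the same arms at P14 and P17 and the choroid, the vascular layer behind the retina, at all 3 ages. The question was which small RNAs differ while retinal vessels degenerate. The members are the 582 miRNAs that reached 20 UMIs in OIR or in CTL, of 750 miRNAs listed anywhere in the series. The tRNA fragments and piRNA entries of the same libraries are described with them.

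A UMI (unique molecular identifier) tags a captured molecule, so that copies made by PCR count once. Levels are UMIs per 1000000 miRNA UMIs of the library (RPM), and a ratio is the OIR level over the CTL level. The range in parentheses after a ratio is its exact 95% interval, which covers counting error only. Higher or lower in OIR, when counted, means a ratio above 1.2 or below 0.8, the rule of the study, with an interval that excludes 1. With 1 pool a side there is no replicate check, no p-value can be given, and these words describe the 2 pools. In pooled tissue, fewer cells of a type and less of its RNA per cell cannot be told apart.

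A miRNA is cut from a hairpin that can give a miRNA from either arm (5p and 3p), usually with 1 major arm, and it represses messenger RNAs that pair with its seed, bases 2 to 8. Many miRNAs are made by few cell types. In the eye the miR-183 cluster marks photoreceptors and miR-9 and miR-124 mark neural cells. Vessels, connective tissue, muscle and blood cells carry sets of their own, such as miR-126 of endothelium and miR-199a of mesenchyme. OIR models retinopathy of prematurity, in which changing oxygen first stunts retinal vessels.

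The OIR retina held 10533753 miRNA UMIs in 17645910 total reads and the CTL retina 11263013 in 16834829, so that 1 UMI was worth 0.0949 RPM in OIR and 0.0888 RPM in CTL. The files list a miRNA only from 10 UMIs upward, and 614 were listed in both libraries, 11 only in OIR and 53 only in CTL. Where a miRNA was unlisted, 10 UMIs served as its upper bound. Neural miR-9a-5p led both pools and photoreceptor miR-182 came next. This does not tell retina from choroid at P7, since miR-182 also stood at 113470 RPM in the P7 CTL choroid and 52851 RPM in the P7 OIR choroid. The CTL retina stood apart from the other retina libraries. Over 260 miRNAs with at least 1000 UMIs in some library, its median absolute log2 difference was 0.33 from the P7 OIR retina but 0.30 from the P7 CTL choroid, whereas the OIR retina differed from the P7 CTL choroid by 0.61. Every ratio below rests on this CTL pool.

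Mature sequences were taken from RefSeq (build GRCr8) and were found for 532 of the 582 miRNAs. Those shown carry the main differences. They are written 5′ to 3′ with the seed in capitals, and the first group holds vascular, mesenchymal, muscle and blood cell miRNAs that were far lower in OIR.
miR-199a-5p: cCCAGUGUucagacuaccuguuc
miR-199a-3p: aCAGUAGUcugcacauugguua
miR-126a-3p: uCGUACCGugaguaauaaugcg
miR-126a-5p: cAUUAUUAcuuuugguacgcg
miR-143-3p: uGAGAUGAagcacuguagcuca
miR-223-3p: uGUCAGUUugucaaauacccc
miR-206-3p: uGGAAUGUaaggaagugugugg
miR-1-3p: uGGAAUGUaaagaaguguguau
miR-1b: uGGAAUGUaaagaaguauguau
The next group holds 4 abundant neural and photoreceptor miRNAs, of which miR-9a-5p did not meet the call, and 5 others that were higher in OIR.
miR-9a-5p: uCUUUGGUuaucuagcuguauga
miR-182: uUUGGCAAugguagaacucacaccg
miR-183-5p: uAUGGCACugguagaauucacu
miR-96-5p: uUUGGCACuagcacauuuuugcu
miR-101a-3p: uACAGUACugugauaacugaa
miR-106b-5p: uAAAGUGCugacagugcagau
miR-33-5p: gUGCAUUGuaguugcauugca
miR-504: aGACCCUGgucugcacucuguc
miR-3580-5p: uGCUUGUAcuuauucuggugac
miR-6328, which is rich in G and C at 76.2%, had the lowest OIR to CTL ratio of the 582 miRNAs in the retina at both later ages.
miR-6328: aGGCCUGCucugagcccccgc

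Lower values in OIR were more frequent than higher ones at every level of expression. Of all 582 miRNAs, 61 (10.5%) were higher and 179 (30.8%) were lower in OIR, with a median log2 ratio of -0.18. Among the 84 miRNAs that reached 1000 RPM in 1 of the libraries, 14 (16.7%) were higher and 29 (34.5%) lower. Between 100 and 1000 RPM there were 129 miRNAs, of which 14 (10.9%) were higher and 47 (36.4%) lower. Between 10 and 100 RPM, 22 of 178 (12.4%) were higher and 69 (38.8%) lower, and under 10 RPM, where intervals are wide, 11 of 191 (5.76%) were higher and 34 (17.8%) lower. A ratio below 0.5 was found for 96 miRNAs (16.5%) and one above 2 for 4 (0.687%). The balance depended on the scaling, as 74.6% of the called miRNAs were lower per miRNA UMI, 91.3% per total reads, 87.8% when the choroid-enriched miRNAs defined below left the denominator, and 54.9% with TMM factors.

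**Figure D1:**
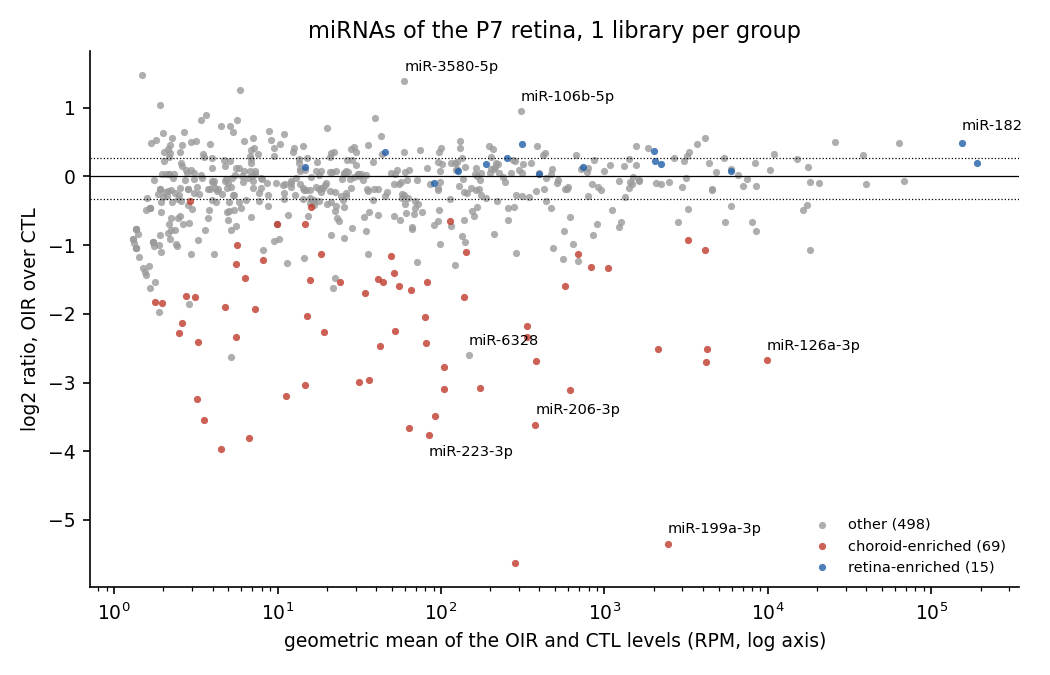
Log2 ratio of each of the 582 miRNAs of the P7 retina (OIR over CTL) against the geometric mean of its 2 levels in RPM on a log axis, 1 point per miRNA, coloured by enrichment at P14 and P17, with dotted lines at ratios of 1.2 and 0.8. The 69 choroid-enriched miRNAs all lie below 0 at every level, down to miR-199a-5p at -5.63, whereas the highest point, the bound for miR-874-5p, is at 1.48.

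Mesenchymal and mural miRNAs, made by fibroblasts and by the cells that wrap vessels, were the lowest list. Of 10 members, 8 were lower and none higher in OIR, beside 30.8% lower among all miRNAs, and the median log2 ratio was -3.02. miR-199a-3p had 382 RPM in OIR and 15510.3 RPM in CTL, a ratio of 0.0246 (0.0239 to 0.0254), and miR-199a-5p had 40.5 RPM in OIR and 2004 RPM in CTL, a ratio of 0.0202 (0.0183 to 0.0223). Both come from a hairpin of mesenchymal cells. miR-143-3p, a smooth muscle miRNA, had 1632 RPM in OIR and 10636 RPM in CTL, and its cluster partner miR-145-5p had 35.8 RPM in OIR and 305 RPM in CTL. The 2 members outside the call were miR-140-5p, known from cartilage, at 0.878 (0.843 to 0.915), and miR-214-5p, which was not listed in OIR.

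Of 6 endothelial miRNAs, 4 were lower in OIR, beside 30.8% of all miRNAs, with a median log2 ratio of -1.69. miR-126a-3p, which sustains vessel growth, had 3889 RPM in OIR and 24812 RPM in CTL, a ratio of 0.157 (0.155 to 0.158), and miR-126a-5p had 1777 RPM in OIR and 10086 RPM in CTL. miR-221-3p stood at 25.9 RPM in OIR and 75.1 RPM in CTL, a ratio of 0.345 (0.300 to 0.396). The call was not met by miR-221-5p at 0.881 (0.514 to 1.496) and miR-222-3p at 0.844 (0.615 to 1.15), both under 10 RPM. Of the clusters of miR-23, miR-27 and miR-24, which are abundant in vascular cells, 6 of the 7 members past the filter were lower, again beside 30.8%. In these clusters the copies differed. miR-23a-3p and miR-27a-3p were at 0.197 (0.187 to 0.208) and 0.221 (0.209 to 0.233), and miR-23b-3p and miR-27b-3p at 0.488 (0.469 to 0.508) and 0.525 (0.517 to 0.533).

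Striated muscle miRNAs summed to 576 RPM in OIR and 4142 RPM in CTL, against 449 to 743 RPM in the retina libraries of P14 and P17. In this list 6 of 10 members were lower in OIR, beside 30.8% of all miRNAs, with a median log2 ratio of -2.27. miR-206-3p, of skeletal muscle, had 108 RPM in OIR and 1319 RPM in CTL, a ratio of 0.0818 (0.0770 to 0.0869). The joint entry of miR-133a-3p and miR-133b-3p had 27.6 RPM in OIR and 309 RPM in CTL, and miR-1-3p had 59.3 RPM in OIR and 503 RPM in CTL. miR-1b differs from miR-1-3p by 1 of 22 bases, so how reads were shared between them is uncertain. The opposite arm miR-206-5p was at 6.08 RPM in OIR and 6.04 RPM in CTL, a ratio of 1.01 (0.704 to 1.44). The heart muscle miRNA miR-499-5p was at 0.877 (0.822 to 0.936).

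Blood and immune miRNAs were lower as well. Of 8 leukocyte miRNAs, 7 were lower in OIR, beside 30.8% of all miRNAs, with a median log2 ratio of -1.79. miR-223-3p, of neutrophils, had 22.9 RPM in OIR and 311 RPM in CTL, a ratio of 0.0736 (0.0643 to 0.0838), whereas miR-142-3p, of blood lineages, had 630 RPM in OIR and 1138 RPM in CTL, a ratio of 0.554 (0.537 to 0.570). Between these lay miR-146a-5p, which dampens inflammatory signalling, at 0.155 (0.147 to 0.163) and miR-150-5p, of lymphocytes, at 0.180 (0.154 to 0.210). The related miR-146b-5p was at 0.801 (0.753 to 0.852), just outside the call. Of 4 erythroid miRNAs, 3 were lower, beside the same 30.8%, and the red cell miRNA miR-451-5p had 7.40 RPM in OIR and 17.7 RPM in CTL.

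Of 9 surface epithelium miRNAs, 8 were lower in OIR, beside 30.8% of all miRNAs (median log2 ratio -1.93). miR-205, of cornea and skin, had 18.0 RPM in OIR and 228 RPM in CTL, and miR-200a-3p, which keeps epithelial cells epithelial, had 34.7 RPM in OIR and 187 RPM in CTL. miR-203b-3p was at 0.953 (0.610 to 1.48). miR-184, of cornea and lens, had 521 RPM in OIR and 1299 RPM in CTL. In the retinal pigment epithelium list, miR-204-5p had 6325 RPM in OIR and 10022 RPM in CTL, a ratio of 0.631 (0.625 to 0.637), and miR-211-5p was at 0.620 (0.603 to 0.638), while their 3p arms, under 10 RPM, did not meet the call. The miR-322-503 cluster of the X chromosome, which restrains the cell cycle, had all 7 members lower in OIR, from 0.210 (0.183 to 0.240) for miR-503-5p to 0.457 (0.442 to 0.473) for miR-322-5p. The share lower among all miRNAs was 30.8%, and all 7 belong to the choroid-enriched miRNAs.

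All 5 members of the photoreceptor cluster were higher in OIR (10.5% of all miRNAs), with a median log2 ratio of 0.35. miR-182 had 181113 RPM in OIR and 129825 RPM in CTL, a ratio of 1.395 (1.392 to 1.398), and miR-96-5p had 42767 RPM in OIR and 34389 RPM in CTL, a ratio of 1.24 (1.24 to 1.25). The minor arms were at 1.202 (1.14 to 1.27) for miR-183-3p and 1.27 (1.12 to 1.45) for miR-96-3p. Per total reads, only 2 of the 5 remained above the threshold. Of 11 neuronal miRNAs, 2 were higher and none lower, a share near the 10.5% of all miRNAs. With TMM factors 6 and with DESeq2 size factors 7 were higher, and per total reads 2 were higher and 1 lower. The 2 higher per miRNA UMI were miR-124-3p at 1.38 (1.36 to 1.402) and miR-137-3p at 1.36 (1.28 to 1.44). In contrast, miR-9a-5p, the most abundant miRNA of the library, had 203618 RPM in OIR and 178289 RPM in CTL, a ratio of 1.14 (1.14 to 1.14). The lowest were miR-124-5p at 0.894 (0.874 to 0.914) and miR-128-3p at 0.957 (0.934 to 0.980).

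**Figure D2:**
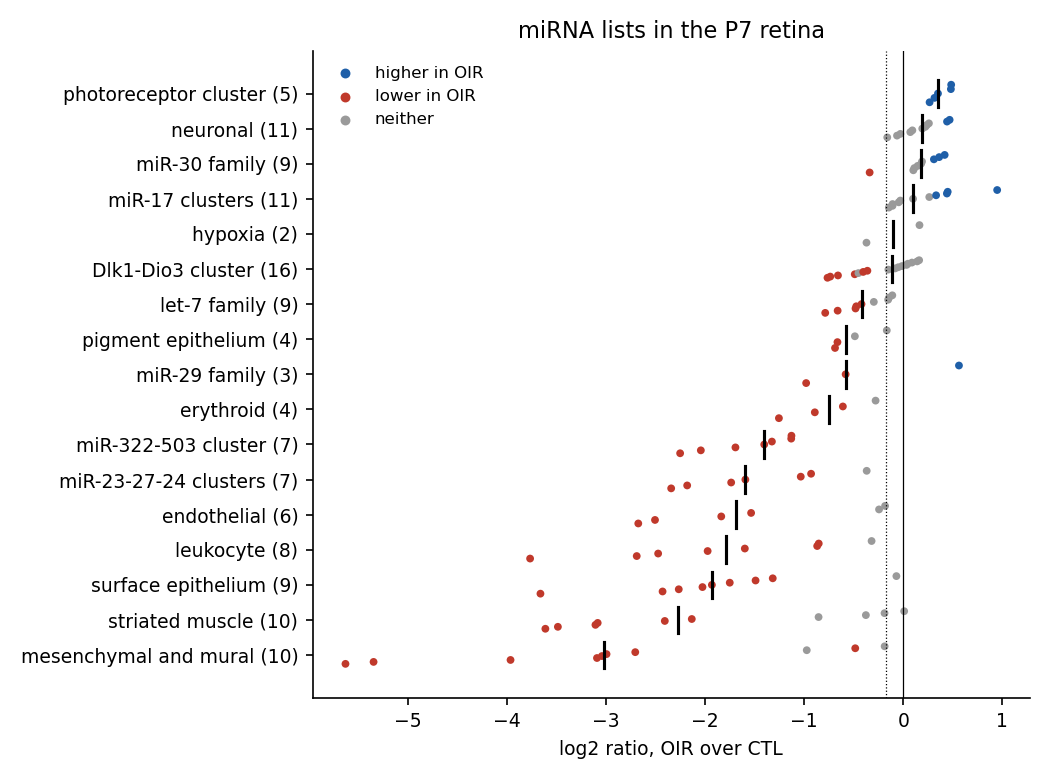
Log2 ratio (OIR over CTL) of the members of 17 miRNA lists in the P7 retina, 1 point per miRNA past the filter (numbers in brackets), with the list median as a black bar, the median of all 582 miRNAs as a dotted line at -0.18, and colours for members called higher, lower or neither. The photoreceptor cluster lies wholly above 0, and the mesenchymal and mural, striated muscle, epithelial and leukocyte medians lie at -3.02, -2.27, -1.93 and -1.79.

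Members of a seed family did not always move as a block. Some families stayed together, since all 3 miRNAs with the seed CCCUGAG were lower in OIR, beside 30.8% of all miRNAs. The 4 with the seed GUAAACA lay between 0.994 and 1.11. The miR-29 family, repressors of collagen and other matrix genes, divided. miR-29a-3p had 457 RPM in OIR and 901 RPM in CTL, a ratio of 0.507 (0.490 to 0.525), and miR-29b-3p had 131 RPM in OIR and 196 RPM in CTL, while miR-29c-3p had 5019 RPM in OIR and 3400 RPM in CTL, a ratio of 1.48 (1.46 to 1.496). miR-29a-3p and miR-29c-3p differ by 1 of 22 bases and share the seed.
miR-29a-3p: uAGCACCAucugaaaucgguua
miR-29b-3p: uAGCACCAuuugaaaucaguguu
miR-29c-3p: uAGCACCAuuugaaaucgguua
The seed AGCAGCA of the miR-15/16 family, which blocks cell cycle entry, showed a similar division. miR-16-5p was at 0.957 (0.954 to 0.960) and miR-15b-5p at 0.870 (0.847 to 0.894), against 0.516 (0.479 to 0.555) for miR-195-5p, 0.457 (0.442 to 0.473) for miR-322-5p and 0.345 (0.311 to 0.381) for miR-497-5p.
miR-16-5p: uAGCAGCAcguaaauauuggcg
miR-15b-5p: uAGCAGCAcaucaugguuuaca
miR-195-5p: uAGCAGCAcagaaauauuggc
miR-322-5p: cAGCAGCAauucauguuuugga
miR-497-5p: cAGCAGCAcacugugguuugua
With the seed CAGUGCA, miR-148b-3p was at 0.896 (0.882 to 0.910), miR-148a-3p at 0.476 (0.469 to 0.482) and miR-152-3p at 0.175 (0.171 to 0.179). In contrast, the 3 muscle miRNAs with the seed GGAAUGU printed above were all between 0.0818 and 0.118.

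The miR-17 clusters promote proliferation of progenitors. Of 11 members, 4 were higher in OIR and none lower, beside 10.5% higher among all miRNAs. The list median of 0.10 on the log2 scale was -0.066 per total reads and -0.0176 without the choroid-enriched miRNAs in the denominator. miR-106b-5p had 426 RPM in OIR and 221 RPM in CTL, a ratio of 1.93 (1.84 to 2.03). miR-17-5p had 450 RPM in OIR and 330 RPM in CTL, a ratio of 1.36 (1.31 to 1.42), and miR-19a-3p and miR-19b-3p were at 1.36 (1.33 to 1.39) and 1.26 (1.25 to 1.27). Other members with the seed AAAGUGC stood lower, with miR-93-5p at 0.904 (0.896 to 0.912), miR-20a-5p at 0.928 (0.911 to 0.945) and miR-20b-5p at 0.968 (0.876 to 1.07). miR-17-5p and miR-20a-5p differ by 2 of 23 bases.
miR-17-5p: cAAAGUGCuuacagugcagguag
miR-20a-5p: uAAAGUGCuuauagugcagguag
miR-93-5p: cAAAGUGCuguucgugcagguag

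The let-7 family, which favours differentiation, had 5 of 9 members lower in OIR (30.8% of all miRNAs) and none higher, with a median log2 ratio of -0.42, and 2 of 9 lower with TMM or DESeq2 factors. let-7c-5p had 6399 RPM in OIR and 11044 RPM in CTL, a ratio of 0.579 (0.574 to 0.585), and let-7b-5p was at 0.632 (0.622 to 0.642). let-7f-5p had 38420 RPM in OIR and 41482 RPM in CTL, a ratio of 0.926 (0.922 to 0.930). Neighbours in sequence differ by as little as 1 of 22 bases, so how the alignment divided reads among them is uncertain.
let-7c-5p: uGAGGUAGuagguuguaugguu
let-7b-5p: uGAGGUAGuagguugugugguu
let-7a-5p: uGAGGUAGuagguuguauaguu
let-7e-5p: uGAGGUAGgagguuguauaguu
let-7f-5p: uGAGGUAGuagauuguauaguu
Among the miRNAs between 100 and 1000 RPM, miR-3596a is the reverse complement of all 22 bases of let-7a-5p, and miR-3596c that of 21 bases of let-7e-5p.
miR-3596a: aACUAUACaaccuacuaccuca
miR-3596c: aCUAUACAaccuccuaccuca
miR-3596a was at 0.664 (0.642 to 0.688), next to let-7a-5p at 0.747 (0.742 to 0.752), and miR-3596c at 0.613 (0.560 to 0.672), next to let-7e-5p at 0.720 (0.709 to 0.731). miR-3596a held 3.35% of the let-7a-5p level in OIR and 3.76% in CTL. Unless the authors' alignment was strand-specific, such antisense entries cannot be told apart from let-7 reads.

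The miR-30 family had 3 of 9 members higher, namely miR-30e-3p at 1.34 (1.31 to 1.36), miR-30b-5p at 1.29 (1.27 to 1.30) and miR-30a-3p at 1.24 (1.199 to 1.28), and 1 lower, miR-30c-2-3p at 0.790 (0.688 to 0.908). Its median log2 ratio was 0.18, and the count of higher members was 0 per total reads and 8 with TMM or DESeq2 factors. Per miRNA UMI, 10.5% of all miRNAs were higher. The imprinted Dlk1-Dio3 cluster, active in neurons and in growing tissue, had 6 of 16 members lower, close to the 30.8% of all miRNAs, with a median of -0.12 that turned to 0.050 with TMM factors and 0.058 with DESeq2 size factors. Its lowest were miR-409a-3p at 0.589 (0.529 to 0.655), miR-379-5p at 0.600 (0.586 to 0.615) and miR-411-5p at 0.633 (0.618 to 0.649). The hypoxia miRNA miR-210-3p had 1146 RPM in OIR and 1023 RPM in CTL, a ratio of 1.12 (1.09 to 1.15), and met the call only with TMM or DESeq2 factors.

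To see how much of the difference lay on miRNAs that are more abundant in the choroid, 2 classes were drawn from the P14 and P17 libraries alone. Such miRNAs need not be foreign to the retina. Endothelial miR-126a-3p stood at 7897 to 14003 RPM in the P14 and P17 retinas. A choroid-enriched miRNA had at least 4 times the level in the choroid as in the retina in all 4 pairs of the same age and arm, with at least 100 UMIs in each choroid library, and retina-enriched is the mirror of this. These rules gave 70 and 15 miRNAs. Of the 69 choroid-enriched miRNAs past the filter, 68 were lower in OIR at P7 (30.8% of all miRNAs) and none higher, and their median ratio was 0.246. Of the 15 retina-enriched miRNAs, 5 were higher (10.5% of all) and none lower.

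Summed, the choroid-enriched miRNAs took 17556 RPM of the P7 OIR retina and 93601 RPM of the P7 CTL retina, a ratio of 0.188 (0.187 to 0.188). The 4 later retina libraries held between 24255 and 41312 RPM, so the OIR pool lay below all of them and the CTL pool above all of them. In the choroid the sum was 360522 RPM in the P7 OIR library and 172372 RPM in the P7 CTL library, against 373161 to 428649 RPM at P14 and P17. The retina-enriched sum was 400006 RPM in the OIR retina and 321670 RPM in the CTL retina, and the P7 CTL choroid, at 262889 RPM, held the highest retina-enriched sum of any choroid library. On both sums each P7 CTL library lay nearer to the other tissue than the remaining libraries of its own tissue did. The class rules compared the P14 and P17 retinas with the P14 and P17 choroids. The wide gap between the tissues in those libraries is therefore partly built in, and so is part of the distance of the P7 libraries from them.

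**Figure D3:**
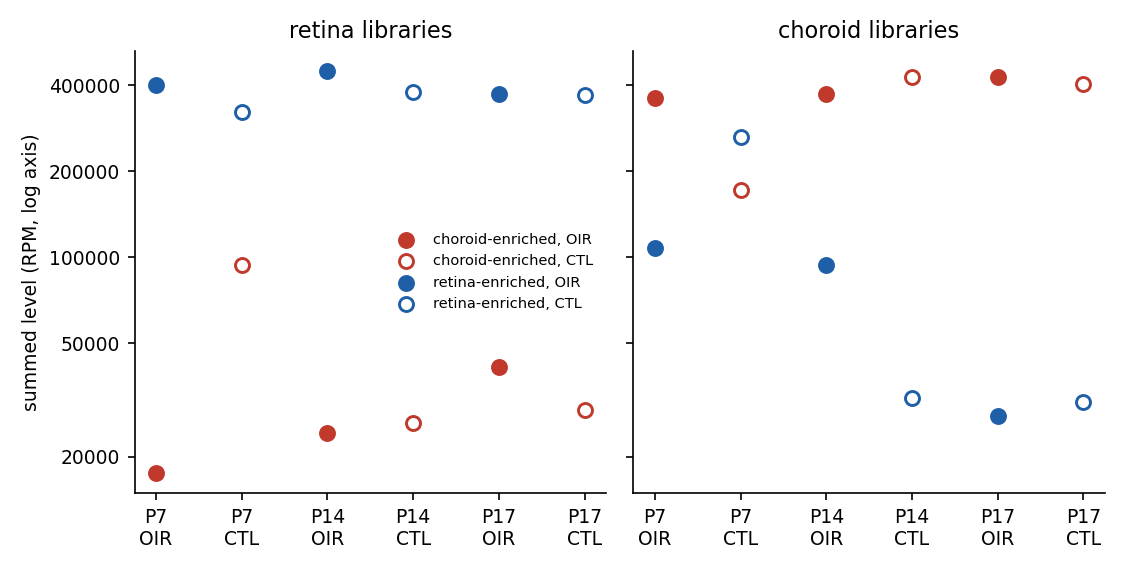
Summed level in RPM, on a log axis, of the choroid-enriched (red) and retina-enriched (blue) miRNAs in each of the 6 retina and 6 choroid libraries, filled for OIR and open for CTL. At P7 the red points of the retina are at 17556 RPM in OIR and 93601 RPM in CTL, and the red and blue points of the CTL choroid lie close together at 172372 and 262889 RPM.

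Adding up every miRNA that was lower in OIR gave 137454 RPM, of which 55.3% lay on the choroid-enriched miRNAs. By list, 21.3% lay on the endothelial and 19.6% on the mesenchymal and mural miRNAs, shares that overlap with the 55.3%, since 4 of 6 and 7 of 10 of these are choroid-enriched. Outside the choroid-enriched class, the let-7 family held 15.8% of the total and miR-125b-5p 9.999%. miR-125b-5p, abundant in neural and mesenchymal cells alike, had 12583 RPM in OIR and 26327 RPM in CTL. A stricter rule of 8-fold enrichment gave 36.0% in place of 55.3%, and a looser one of 2-fold gave 76.8%. Of all RPM gained in OIR, 71.3% lay on miR-182, miR-183-5p and miR-9a-5p.

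The place of each pool among the 6 retina libraries differed by class. The OIR value lay below the other 5 retina libraries for 29 of the 69 choroid-enriched miRNAs (20.6% of all 582 miRNAs). The CTL value lay above the other 5 for 67 of these 69, with a median of 2.10 times the next highest, beside 43.6% of all miRNAs. Among the 15 retina-enriched miRNAs the OIR value was above the other 5 for 7 (15.3% of all), and the CTL value below them for 6 (11.3% of all). The class rules ask for low or high levels in the 4 later retinas relative to the choroid, so part of the CTL place is built in. miR-199a-3p was lowest in OIR and highest in CTL, with 382 RPM in the P7 OIR retina, 15510.3 RPM in the P7 CTL retina and 407 to 580 RPM in the 4 later retinas.

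Set against the choroid, the excess of the CTL pool (CTL minus OIR) came to a median of 20.6% of the level in the P7 OIR choroid (quartiles 15.8% and 25.4%) over the 69 choroid-enriched miRNAs, and 40.8% of the level in the P7 CTL choroid (quartiles 30.6% and 49.9%). It was not the same for all lists. Against the P7 OIR choroid, the median was 23.1% for the mesenchymal and mural list, 24.0% for leukocytes and 20.9% for endothelium, but 13.0% for striated muscle, 8.20% for the erythroid list and 7.90% for surface epithelium. Against the P7 CTL choroid these were 47.0%, 48.6%, 40.5%, 19.5%, 32.2% and 29.7% in the same order. Whether choroid or another non-retinal tissue was carried into the CTL pool at dissection was not tested.

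As arithmetic chosen after the data were seen, the OIR retina profile was blended with a P7 choroid profile at the weight that the median choroid-enriched miRNA needs to meet the CTL retina. This weight was 22.0% of the P7 OIR choroid or 48.7% of the P7 CTL choroid. Of the 84 miRNAs from 1000 RPM upward, 14 lay above 1.2 and 29 below 0.8 before blending, against 9 and 6 with the OIR choroid and 3 and 3 with the CTL choroid. The choroid-enriched miRNAs set the weight, so part of this fall is built in. For the 70 outside that class, the counts were 14 and 15 before blending, 5 and 5 with the OIR choroid and 1 and 2 with the CTL choroid. These are no independent check either. The P7 CTL choroid was itself nearer to the CTL retina (median absolute log2 difference 0.30) than the OIR retina was (0.33). Part of the fall with the CTL choroid is thus built in here too. For the 498 miRNAs below 1000 RPM the counts were 71 and 199 by the ratio alone, 88 and 96 with the OIR choroid and 69 and 62 with the CTL choroid. miR-182 came to 1.18 and 1.14 times CTL in the 2 blends, and the muscle miRNA miR-206-3p, of the class that set the weight, to 1.64 and 2.71. Over all 582 miRNAs, 97 lay above 1.2 and 102 below 0.8 with the OIR choroid, and 72 and 65 with the CTL choroid. Among those still above 1.2 in both blends were miR-106b-5p (1.66 and 1.36), miR-3580-5p (2.35 and 1.99) and miR-504 (1.90 and 1.67). One that stayed below 0.8 was miR-6328 (0.21 and 0.72). miR-101a-3p, miR-33-5p and miR-29c-3p were above 1.2 in the first blend only.

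Below 1000 RPM the same classes led the lower end. Between 100 and 1000 RPM, 9 of the 10 lowest ratios were of choroid-enriched miRNAs, with miR-223-3p at 0.0736, miR-205 at 0.0791, the joint miR-133a-3p and miR-133b-3p entry at 0.0893 and miR-145-5p at 0.117. miR-455-5p, of cartilage, had 40.3 RPM in OIR and 274 RPM in CTL, and miR-3571 was at 0.129 (0.107 to 0.154). The exception was miR-6328, with 60.2 RPM in OIR and 366 RPM in CTL, a ratio of 0.164 (0.151 to 0.179). At the upper end, miR-106b-5p at 1.93 was followed by miR-33-5p, encoded in a gene of sterol synthesis control, with 157 RPM in OIR and 109 RPM in CTL, a ratio of 1.44 (1.33 to 1.55). miR-153-3p at 1.39 (1.33 to 1.46) and miR-137-3p at 1.36 are neural miRNAs. miR-101a-5p was at 1.34 (1.23 to 1.46), beside its major arm miR-101a-3p at 1.41 (1.403 to 1.418), which had 30788 RPM in OIR and 21823 RPM in CTL. The remaining 5 of the 10 highest, miR-17-5p, miR-325-3p, miR-32-5p, let-7f-2-3p and miR-135b-5p, lay between 1.27 and 1.36.

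Between 10 and 100 RPM, 9 of the 10 lowest were again choroid-enriched. miR-214-3p, which shares a transcript with miR-199a, had 12 UMIs in OIR and 200 UMIs in CTL, a ratio of 0.0642 (0.0326 to 0.115), and miR-3120, cut from the opposite strand of the miR-214 locus, had 11 UMIs in OIR and 137 UMIs in CTL. miR-10a-5p, encoded in a Hox gene cluster, was at 0.0718 (0.0426 to 0.114). miR-483-3p and miR-675-3p, cut from the imprinted growth genes Igf2 and H19, were at 0.161 (0.0980 to 0.253) and 0.197 (0.124 to 0.301). At the upper end, miR-3580-5p had 96.5 RPM in OIR and 37.0 RPM in CTL, a ratio of 2.61 (2.32 to 2.93), and miR-504 had 52.7 RPM in OIR and 29.2 RPM in CTL, a ratio of 1.80 (1.57 to 2.07). The others, among them miR-582-5p at 1.63 (1.35 to 1.98) and the neural miR-433-3p at 1.36 (1.08 to 1.71), were between 1.36 and 1.63.

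Under 10 RPM, miR-375-3p, of neuroendocrine cells, had 96 UMIs in OIR and 43 UMIs in CTL, a ratio of 2.39 (1.65 to 3.50). Past the filter, 1 miRNA, miR-874-5p with 26 UMIs, was listed in OIR and not in CTL, and 7 were listed in CTL and not in OIR. At this depth only miR-147 with 38 UMIs and miR-1949 with 27 UMIs of the 7 could be told from the 10 UMIs that bound an unlisted value. Over 303 miRNAs of at least 10 RPM outside the choroid-enriched class, the log2 ratio had a rank correlation of -0.23 with the GC content of the miRNA. All points come from the same 2 libraries, and the medians were 0.07 up to 35% GC and -0.22 above 55%.

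Both arms past the filter were found for 193 hairpins, and in 142 of them the arms lay on the same side of 1. With at least 100 UMIs for each arm these were 76 of 102 hairpins, and the median absolute difference between the arms was 0.21 on the log2 scale. Of 36 major arms that were lower in OIR, 25 had a minor arm that was lower too, and of 19 that were higher, 8 had a higher minor arm. None of these 102 pairs was called in opposite directions. Among all 193 hairpins 2 were, named after their values were seen, miR-137 (3p 1.36, 5p 0.456) and miR-330 (5p 0.705, 3p 1.85), each with a minor arm under 10 RPM. Of 30 hairpins with a choroid-enriched major arm, all lower, 19 had a lower minor arm. The minor arm miR-199a-5p was at 0.0202 beside 0.0246 for miR-199a-3p, miR-145-3p at 0.122 beside 0.117 for miR-145-5p, and miR-143-5p at 0.126 beside 0.153 for miR-143-3p.

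Other hairpins had arms that differed beyond their counting intervals. miR-224-5p had 36.8 RPM in OIR and 116 RPM in CTL, a ratio of 0.318 (0.283 to 0.356), whereas miR-224-3p had 16.7 RPM in OIR and 13.9 RPM in CTL, a ratio of 1.21 (0.967 to 1.51). The minor arm therefore took 31.2% of the hairpin in OIR and 10.7% in CTL.
miR-224-5p: cAAGUCACuagugguuccguuu
miR-224-3p: aAAUGGUGcccuagugacuaca
miR-106b went the other way. miR-106b-5p was at 1.93, and miR-106b-3p had 89.7 RPM in OIR and 103 RPM in CTL, a ratio of 0.870 (0.797 to 0.948), which put the minor arm at 17.4% of the hairpin in OIR and 31.8% in CTL. For miR-195 the arms were at 0.516 (5p) and 0.929 (3p), and for miR-29c at 1.48 (3p) and 0.880 (5p). Minor arms with fewer UMIs were less sure. miR-206-5p was at 1.01 (0.704 to 1.44), miR-214-5p at 0.509 (0.214 to 1.13), miR-223-5p at 0.255 (0.114 to 0.516) and miR-133a-5p at 0.189 (0.101 to 0.329), all under 10 RPM.

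**Figure D4:**
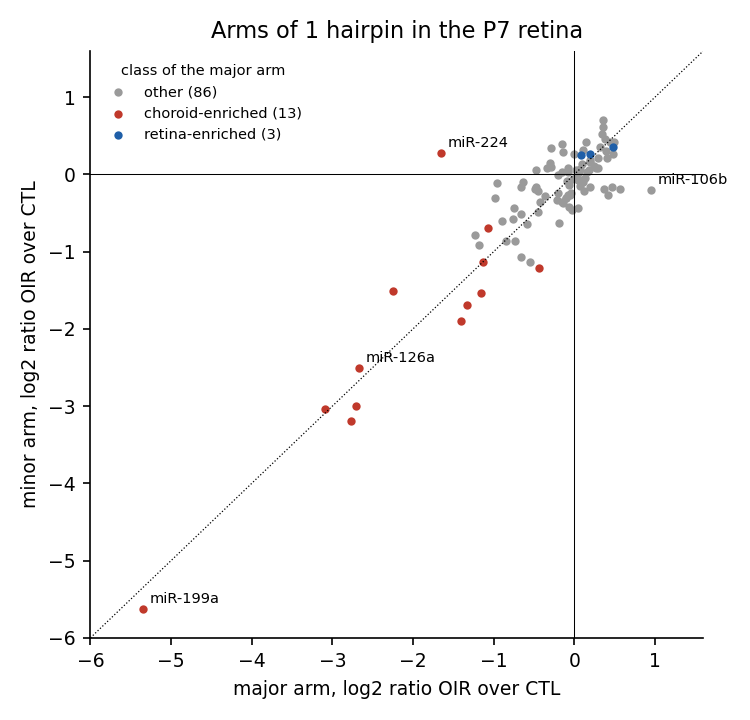
Log2 ratio (OIR over CTL) of the minor arm against that of the major arm for the 102 hairpins with at least 100 UMIs for each arm, 1 point per hairpin, coloured by the class of the major arm, with the line of equality dotted. Most hairpins lie near the line, including miR-199a and miR-126a, while miR-224 and miR-106b lie away from it.

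The same contrast in the retina at P14 and P17, measured on separate pools, could be read for 531 of the 582 miRNAs. Of the 61 choroid-enriched miRNAs among these that were lower at P7, 2 had a ratio below 0.8 at both later ages, beside 16% of all 531, and 13 had a ratio above 1.2 at both, beside 10.7%. Their median log2 ratio was 0.02 at P14 and 0.28 at P17. Of the 100 other miRNAs that were lower at P7, 28 were below 0.8 and 7 above 1.2 at both later ages. Of the 60 that were higher at P7, 16 were above 1.2 at both later ages, beside 10.7% of all. A further 9 of the 60 were below 0.8 at both, beside 16% of all. The choroid-enriched class was defined on levels in these later libraries, though not on their OIR to CTL ratios.

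The 16 miRNAs called higher at P7 and above 1.2 at both later ages were singled out after their values were seen. They include miR-106b-5p, miR-17-5p, miR-101a-3p, miR-33-5p, miR-504, miR-3580-5p, both arms of miR-582, miR-30a-3p, miR-30b-5p and miR-30e-3p. miR-101a-3p was at 1.41, 1.49 and 1.29 at P7, P14 and P17, and miR-504 at 1.80, 1.85 and 1.83. Among the 30 called lower at P7 and below 0.8 at both later ages were let-7a-5p, let-7b-5p, let-7c-5p and let-7e-5p, with let-7c-5p at 0.579, 0.548 and 0.772. miR-381-3p, miR-431, miR-127-3p and miR-300-3p of the Dlk1-Dio3 region were also among them. miR-6328 had the widest difference, with 60.2 RPM in OIR and 366 RPM in CTL at P7, 11.7 RPM in OIR and 548 RPM in CTL at P14, and 4.93 RPM in OIR and 173 RPM in CTL at P17. It was also below 0.8 in all 3 choroid pairs, at 0.299, 0.790 and 0.0135 for P7, P14 and P17. By the ratio alone, without regard to the interval, 5 of the 582 miRNAs were below 0.8 in all 6 pairs of the series (miR-6328, miR-105, miR-128-1-5p, miR-347 and miR-3596c). By the same rule 1 was above 1.2 in all 6, miR-151-5p.

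**Figure D5:**
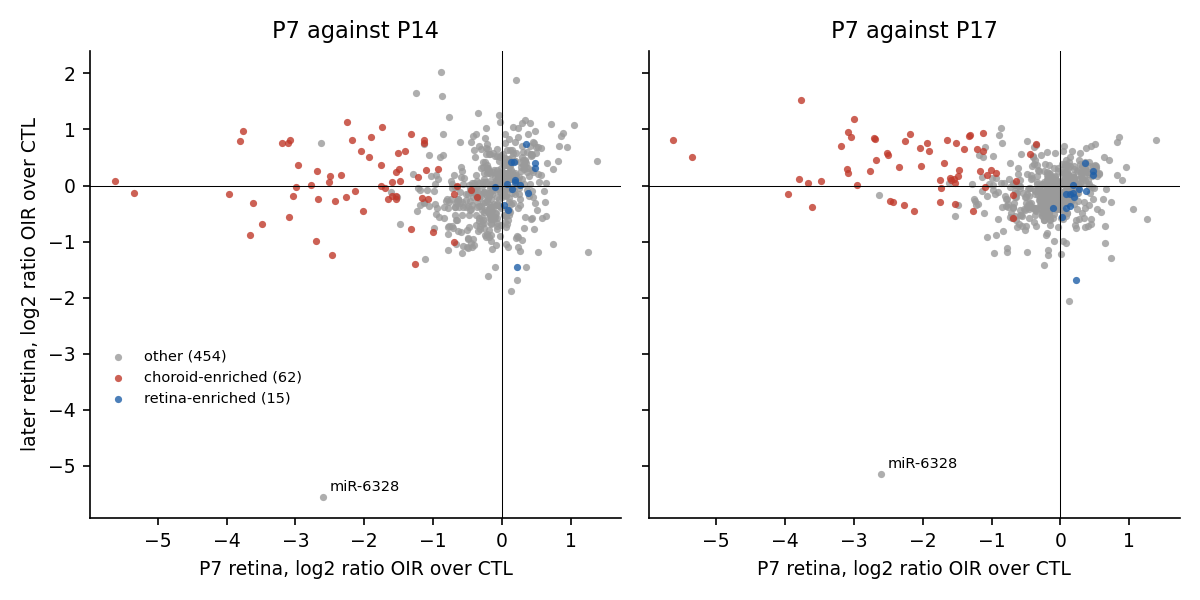
Log2 ratio (OIR over CTL) of 531 miRNAs in the P14 (left) and P17 (right) retina against the log2 ratio in the P7 retina, 1 point per miRNA, coloured by class. The choroid-enriched miRNAs spread far to the left on the P7 axis but lie on both sides of 0 on the later axis, and miR-6328 lies at the bottom of both panels.

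Fragments of transfer RNAs, the adaptors of translation, were 9269 RPM in OIR and 11083 RPM in CTL, a ratio of 0.836 (0.829 to 0.843). Named by amino acid and anticodon, 40 kinds had at least 100 UMIs in 1 library, of which 11 (27.5%) were higher and 9 (22.5%) lower in OIR. The lower side was led by glycine and valine tRNAs. Gly-GCC, the most abundant kind in CTL, had 1696 RPM in OIR and 3706 RPM in CTL, a ratio of 0.458 (0.450 to 0.466), and took 18.3% of tRNA UMIs in OIR and 33.4% in CTL. Gly-CCC had 106 RPM in OIR and 449 RPM in CTL, a ratio of 0.236 (0.221 to 0.252), Val-AAC was at 0.280 (0.262 to 0.300), Val-CAC at 0.434 (0.414 to 0.455) and Ser-AGA at 0.436 (0.353 to 0.535). At P14 and P17 these 5 were at 6.09 to 44.9 times the retinal level in the choroid (geometric mean of the 4 pairs). Gly-GCC stood at 1709 to 2463 RPM in the 4 later retinas, and at 12051 RPM in the P7 OIR choroid and 4102 RPM in the P7 CTL choroid, so that the CTL retina again lay above the other retina libraries. Copies of a tRNA gene share reads, and the 14 Gly-GCC entries ranged from 0.212 to 1.17.

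On the higher side, Lys-TTT had 1152 RPM in OIR and 789 RPM in CTL, a ratio of 1.46 (1.42 to 1.501), Glu-TTC was at 1.33 (1.27 to 1.399) and Arg-TCT at 1.31 (1.15 to 1.49). Asp-GTC had 1861 RPM in OIR and 1418 RPM in CTL, a ratio of 1.31 (1.28 to 1.34), and was the most abundant kind in OIR. Arg-CCG was at 1.29 (1.08 to 1.55). With Gly-GCC, Gly-CCC, Val-AAC and Val-CAC set aside, the remaining tRNA came to 7139 RPM in OIR and 6046 RPM in CTL, a ratio of 1.18 (1.17 to 1.19). Per tRNA UMI, 20 kinds were above 1.2 and 7 below 0.8, and per total reads 1 was higher and 13 lower, so the upper side rests on the scaling while Gly-GCC kept its side, at 0.547 and 0.408.

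Entries annotated as piRNAs, a class known mainly from the germline, made up 2428 RPM in OIR and 2287 RPM in CTL, a ratio of 1.06 (1.04 to 1.08). Of 61 entries past the filter, 17 (27.9%) were higher and 10 (16.4%) lower in OIR, with a median ratio of 1.04. The 10 most abundant held 66.0% of the piRNA UMIs in OIR and 66.6% in CTL. piR_011541 had 311 RPM in OIR and 172 RPM in CTL, a ratio of 1.80 (1.70 to 1.91), and piR_000821 had 161 RPM in OIR and 72.8 RPM in CTL, a ratio of 2.21 (2.03 to 2.40). piR_012452 was at 1.45 (1.32 to 1.59) and piR_023471 at 1.42 (1.28 to 1.59). piR_005901 had 105 RPM in OIR and 262 RPM in CTL, a ratio of 0.403 (0.375 to 0.431), and stood at 1007 RPM in the P14 CTL choroid, while piR_000746 was at 0.742 (0.691 to 0.796). The other 4, piR_005595, piR_004288, piR_001414 and piR_001415, lay between 0.972 and 1.05.

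The make-up of the libraries differed too. miRNA reads were 67.4% of the total in OIR and 74.3% in CTL, reads too short to assign 19.9% in OIR and 13.0% in CTL, tRNA reads 0.580% in OIR and 0.776% in CTL, piRNA reads 0.156% in OIR and 0.169% in CTL, and reads that could not be mapped 1.43% in OIR and 2.90% in CTL. The part of these shares in the ratios above was not tested.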

How the data were processed

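Small RNA of 1 P7 OIR and 1 P7 CTL retina pool was sequenced. The labels name a QIAseq miRNA kit, whereas the methods of the study describe another kit for small RNA. The submitters' processing notes name bcl2fastq 2.20, cutadapt, Bowtie and Rnor_6.0, and whether the alignment was strand-specific is not given in the sources used here. The values are counts of UMIs and reads per feature as deposited by the authors, with entries from 10 UMIs upward, not normalised, and a table of read counts per RNA class.

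Levels were computed per 1000000 miRNA UMIs, with 20 UMIs in 1 of 2 libraries as the filter (100 for tRNA anticodons). Ratios have exact conditional (Clopper-Pearson) 95% intervals, computed with Python 3.11.15, scipy 1.17.1 and pandas 2.3.3 and tested on simulated data. PCR copies were collapsed by UMI, and intervals cover counting error only. edgeR 4.0.16 (R 4.3.3) gave TMM factors and DESeq2 1.42.0 size factors as alternative scalings, and no model was fitted across genes. In each level class from 10 RPM upward, the 10 lowest and 10 highest ratios set the miRNAs to name. Each of these had an interval that excludes 1 and at least 100 UMIs in 1 library. List members were named as well, and under 10 RPM no such rule was applied. Members, lists and classes were chosen with earlier results of these data known. The miRNAs past the ratio at all 3 ages or in all 6 pairs, and the blends, were chosen after values were seen. The authors' own comparisons were not used.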

Additional observations from a re-analysis of the deposited data

Results flagged for a closer look

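Some groups of miRNAs lay on opposite sides of 1 in the 2 tissues at P7, by their median ratio of OIR over CTL. With 1 library per group these differences were not tested. The median ratio of the 69 choroid-enriched miRNAs was 0.246 in the retina and 1.95 in the choroid. The photoreceptor cluster was at 1.27 in the retina and 0.382 in the choroid.

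Vascular and connective tissue lists were all on the lower side in the retina. The mesenchymal and mural list was at 0.124 in the retina and 2.10 in the choroid, the endothelial list at 0.313 in the retina and 1.92 in the choroid, and the miR-23-27-24 clusters at 0.331 in the retina and 1.77 in the choroid. The miR-322-503 cluster was at 0.378 in the retina and 1.93 in the choroid. The miR-29 family, with 3 members, had a median of 0.668 in the retina and 2.03 in the choroid. Its summed level in the retina had a ratio of 1.25 (1.23 to 1.26), on the other side of 1. Striated muscle was at 0.208 in the retina and 1.46 in the choroid.

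Surface epithelium stood at 0.262 in the retina and 3.64 in the choroid, and the erythroid list at 0.597 in the retina and 3.94 in the choroid. Leukocyte miRNAs were at 0.292 in the retina and 1.92 in the choroid, and pigment epithelium miRNAs at 0.672 in the retina and 1.404 in the choroid. For both tissues the CTL libraries are those whose class sums lay nearest to the other tissue.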

How the results depend on the processing

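No paired analysis was possible because each group is 1 library, and leaving out a library would leave no comparison. From 1000 RPM upward, 14 miRNAs were higher, against 6 per total reads, 28 with TMM factors, 28 with DESeq2 size factors, 7 without the choroid-enriched miRNAs in the denominator and 0 past 2-fold. In that class 29 were lower, against 15 past 2-fold. Below 1000 RPM, 47 were higher, against 18 per total reads, 88 with TMM factors, 90 with DESeq2 size factors, 24 with the reduced denominator, 4 past 2-fold and 16 with the whole interval past the threshold. The 150 lower miRNAs there were 78 past 2-fold. By the ratio alone, blending with the OIR and CTL choroid gave 9 and 3 in place of 14 above 1.2 and 6 and 3 in place of 29 below 0.8 from 1000 RPM upward, and below it 88 and 69 in place of 71 above and 96 and 62 in place of 199 below. The choroid-enriched part of the lower RPM, 55.3%, was 36.0% at 8-fold enrichment. Higher tRNA anticodons, 11, were 20 per tRNA UMI and 1 per total reads. The median log2 ratio of all miRNAs was -0.18, and it was -0.34 per total reads and -0.01 with TMM factors.

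List medians that changed sign were the hypoxia list (-0.10, against 0.062 with TMM, 0.070 with DESeq2 and 0.16 from 100 UMIs), the miR-17 clusters (0.10, against -0.066 per total reads and -0.0176 with the reduced denominator) and the Dlk1-Dio3 cluster (-0.12, against 0.050 with TMM and 0.058 with DESeq2). Of 954 values of 159 single miRNAs under 6 scalings, 428 moved beyond their interval. Among called miRNAs 0 reversed, which says little, since ratios past 1.2 or 0.8 lie beyond the largest common shift, 0.174 on the log2 scale. miRNAs outside the call could change side. TMM factors shifted log2 ratios upward by 0.166, more than the distance below equality of miR-20a-5p (-0.108) and let-7f-5p (-0.111). Under 10 RPM, depth limits what could be detected, since 20 UMIs against 10 could not be told apart.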
